A study of Mus musculus with 502 samples.

Results

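Silencers are stretches of DNA that lower the activity of a promoter they act on, usually through bound repressor proteins and the chromatin-modifying complexes these recruit. Ss-STARR-seq looks for them with plasmids: genomic fragments are cloned into a reporter vector and transfected, and fragments that are depleted in the reporter RNA relative to the plasmid DNA are read as silencing. The long arm of chromosome 21 carries nearly all protein-coding genes of the smallest human autosome, and its extra copy causes Down syndrome. As background, its centromeric side is poor in genes, with a large desert between the cell adhesion gene NCAM2 and the amyloid precursor gene APP, whereas its telomeric side is gene-rich and carries the interferon receptor cluster, RUNX1, DYRK1A, ERG, DSCAM and TMPRSS2. Gene positions named here are general knowledge at the scale of a 1 Mb bin, and gene annotation and base sequence were not used here.

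The silencers described are those of the authors' 3 lists whose midpoint lies on chromosome 21 between 13 and 45.7 Mb of hg38, a window of 32.7 Mb. They number 3635 of 397136 silencers in all: 1066 of 125249 in 293T, 1296 of 134159 in K562 and 1273 of 137728 in LNCap. They were chosen by presence in a list, which rests on the measured silencing, and by position; counts and densities are therefore given as a description, and nothing was tested on them. The libraries are those of the lines with no drug or genotype named in the labels: 102 output RNA libraries and 1 input DNA library for 293T, 180 output libraries for K562, and 179 output and 40 input libraries for LNCap. No K562 input library is among those used here, so what the K562 scores, the infinite one included, were measured against is not known here. Which of them went into each list is not given in the sources used here. 293T is a line from embryonic kidney, K562 a leukaemia line with erythroid features, and LNCap a prostate cancer line that responds to androgen. The protocol is the same text for all libraries: growth in DMEM with serum and antibiotics, an induction of cell lines in iCD1 medium, and genome fragments made by sonication. The labels name mouse as the organism, although the lines and the build are human. There is 1 list per line and no replicate list, so differences between lines were not tested, and intervals cover counting error only. Read depth behind a silencer is unknown.

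At the centromeric edge the nearest K562 silencer left out ended at position 13000000 (score 2.8), and the first one kept spanned 13000100 to 13000197 (score 2.0). The first 293T and LNCap silencers kept started at 13000989 (score 2.0) and 13000901 (score 2.2), while the last ones left out lay far off, at 10809750 (score 2.8) and 10808451 (score 2.0). At the telomeric edge the last silencers kept of 293T, K562 and LNCap started at 45688001, 45696039 and 45696683 (scores 2.1, 2.8 and 2.0). The first ones left out there started at 45702011, 45707486 and 45733451 (scores 2.3, 2.2 and 2.1).

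The long arm was sparsely filled in each line. 293T held 32.6 silencers per Mb (exact 95% Poisson interval 30.7 to 34.6). K562 was denser at 39.6 (37.5 to 41.9), as was LNCap at 38.9 (36.8 to 41.1). Over their whole lengths, the other 21 autosomes had median densities of 42.5 (293T), 44.2 (K562) and 45.6 (LNCap) silencers per Mb. Only 1 of them was sparser in 293T (chromosome 22, with 25.5) and only 1 in LNCap (chromosome 13, with 36.4), and 6 were sparser in K562. Whole lengths include centromeres and short arms, which the window leaves out, so the densities are not fully comparable. As a share of its own list, the window held 0.851% for 293T, against 0.966% for K562 and 0.924% for LNCap. Divided by the mean share of the other 2 lists, this gave 0.900 for 293T, 1.09 for K562 and 1.02 for LNCap. Of the other autosomes, 4 had a lower 293T ratio and 18 a lower K562 ratio.

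Silencers covered little of the arm: 83.8 kb by the 293T list, 116 kb by that of K562 and 117 kb by that of LNCap, or 0.256%, 0.355% and 0.357% of the window. The median width was 50 bp in each line, and widths were a multiple of 50 bp for 91.8% (293T), 87.5% (K562) and 92.1% (LNCap) of silencers. Silencers of exactly 50 bp made up 67.2% in 293T (95% Wilson interval 64.3 to 69.9), whereas K562 had 57.7% (55.0 to 60.4) and LNCap 58.6% (55.9 to 61.3). Wide silencers of over 300 bp were rare. 293T had 6 of them (0.563%, against 1.39% of its whole list), K562 22 (1.70% against 2.32%) and LNCap 30 (2.36% against 2.28%). The widest measured 550 bp in 293T and in K562 and 600 bp in LNCap.

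The centromeric and telomeric parts of the arm differed in how the lines filled them. The window was cut into equal pieces of 10.9 Mb, at 23.9 and 34.8 Mb, a division chosen after the profile was seen. 293T silencers thinned out towards the telomere, from 41.7 per Mb in the centromeric piece (interval 38.0 to 45.8) to 29.8 (26.7 to 33.2) in the middle and 26.2 (23.3 to 29.5) in the telomeric piece. K562 stayed within counting error, at 41.3 (37.6 to 45.3), 39.5 (35.9 to 43.5) and 38.1 (34.5 to 41.9). LNCap had 36.3 (32.8 to 40.1), 40.2 (36.5 to 44.1) and 40.3 (36.6 to 44.2), values whose intervals overlap. Relative to the mean of the other 2 lists, 293T thus went from 1.17 in the centromeric piece to 0.812 and 0.727, while LNCap went from 0.823 to 1.10 and 1.19. K562 had 1.03, 1.11 and 1.13. Each ratio has the other lists as its base, so a lower 293T density by itself raises the ratios of K562 and LNCap. The 293T list was thus relatively full on the side known as gene-poor and relatively thin on the side known as gene-rich; gene density itself was not measured here.

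**Figure D1:**
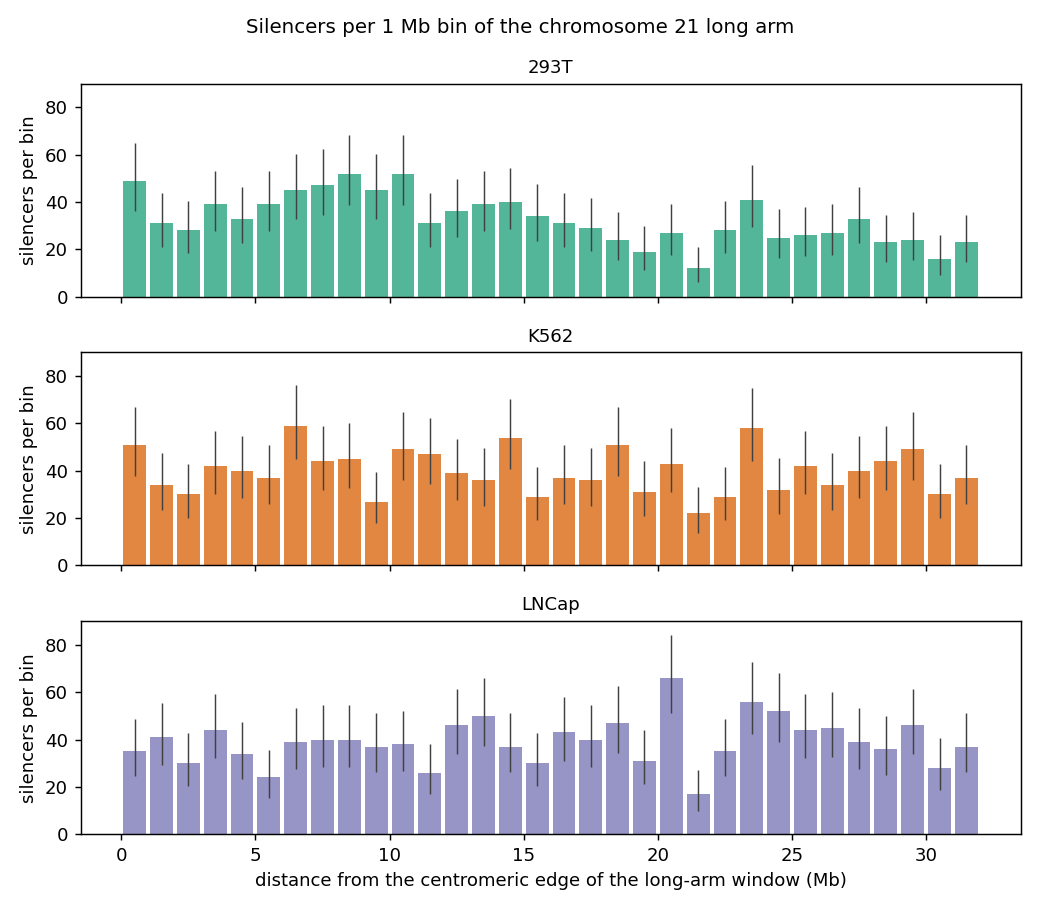
Silencers in each full 1 Mb bin of the long-arm window for 293T, K562 and LNCap, against distance from the centromeric edge in Mb; bars are counts and vertical lines exact 95% Poisson intervals. 293T bins range from 12 to 52 and are lower on the telomeric side. K562 (22 to 59) and LNCap (17 to 66) also vary widely between bins. Their densities in the centromeric, middle and telomeric pieces have overlapping intervals.

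The score, the authors' measure of silencing activity, also differed along the arm. In each list, scores of 3 or more were most frequent in the centromeric piece. The median score of the 293T list was 2.3 on the arm, with quartiles of 2.1 and 2.6. It was 2.2 in K562 and LNCap, with quartiles of 2.0 and 2.5. Scores of 3 or more belonged to 148 silencers in 293T (13.9%, interval 11.9 to 16.1), to 110 of K562 (8.49%, 7.09 to 10.1) and 120 of LNCap (9.43%, 7.94 to 11.2). Over the whole lists these shares were 14.2%, 9.85% and 11.6%. In 293T the share was 18.2% (15.0 to 22.1) in the centromeric piece, 11.4% (8.37 to 15.3) in the middle and 9.79% (6.86 to 13.8) in the telomeric piece, so that the outer values lie beyond each other's counting error. In K562 it was 10.4% (7.95 to 13.6), 6.96% (4.92 to 9.76) and 7.95% (5.72 to 11.0). In LNCap it was 11.9% (9.04 to 15.4), 7.08% (5.03 to 9.87) and 9.57% (7.16 to 12.7). The intervals of both these lines overlap between pieces, which does not show that their pieces are equal. The pieces were cut after the profile was seen, so intervals that overlap or stay apart do not settle a difference. The scale of the score is not stated, nor whether it is the same for the 3 lists, so scores of different lists stand side by side here and a difference between them has no settled meaning.

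**Figure D2:**
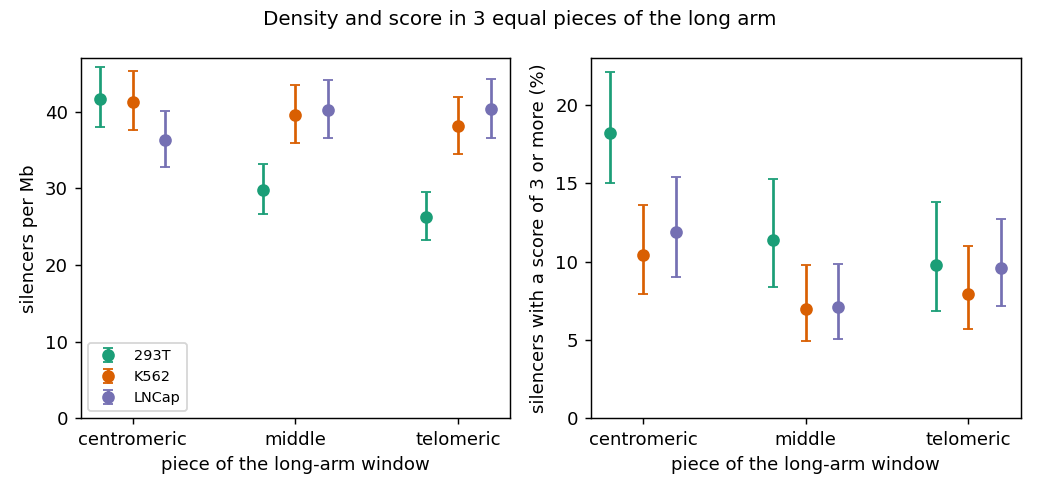
Silencers per Mb (left) and percentage of silencers with a score of 3 or more (right) in the centromeric, middle and telomeric pieces of the window, for each line; points are values and lines 95% intervals (Poisson on the left, Wilson on the right). In 293T the density goes from 41.7 to 26.2 per Mb and the share of high scores from 18.2% to 9.79%. In each line the share of high scores is highest in the centromeric piece.

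In 1 Mb bins the shift of 293T was spread over the arm. Of 32 full bins, 8 had a 293T ratio over 1, all of them among the 16 centromeric bins, and none of the 16 telomeric bins did. LNCap had 4 such bins in the centromeric group and 15 in the telomeric one, and K562 8 and 11. The ratios are tied to each other, so bins with fewer 293T silencers have higher K562 and LNCap ratios at unchanged counts. A bin was called low or high where a list stood under 0.67 times or over 1.5 times the mean of the other 2 lists, scaled to equal size, with at least 20 silencers in all. By this rule 293T was low in 9 of the 32 bins (28.1%), against 10.3% of the 2856 such bins of the genome, and high in 1 (3.12%), against 11.6%. With the lists scaled to equal size within the window instead of over the genome, 293T was low in 4 bins and high in 2. The count of low bins thus depends on the scaling. The 293T total of the arm includes these same bins, so the rescaling cannot separate a low total from low single bins. K562 was high in 1 bin, against 2.31% of bins in the genome, and low in 1, against 5.50%. LNCap was high in 2 (6.25%, against 3.89%) and low in 3 (9.38%, against 8.51%). All 9 low 293T bins lie between 31 and 44 Mb; their counting intervals are wide, and the lowest ratio, 0.531 at 31 to 32 Mb, rests on 24 silencers, against 51 for K562 and 47 for LNCap.

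**Figure D3:**
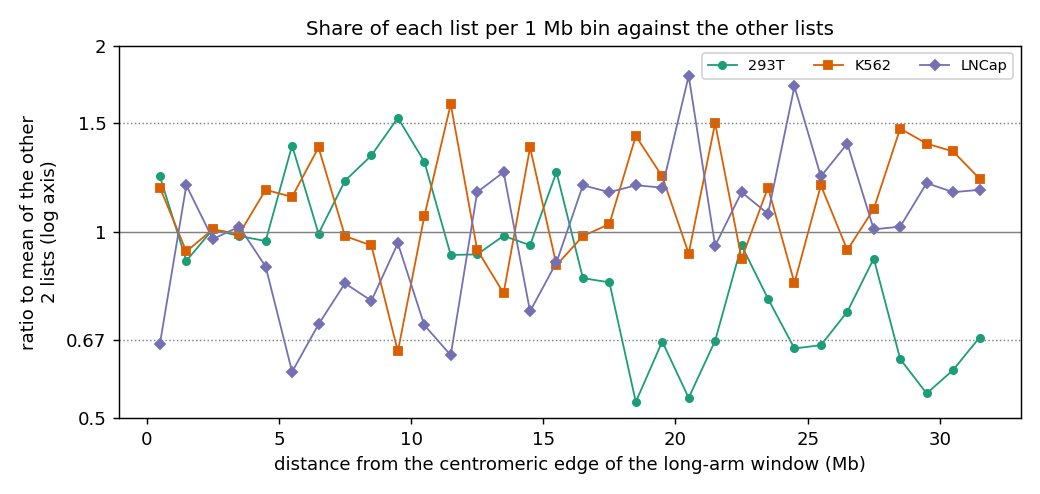
Ratio of each list to the mean of the other 2 lists in each 1 Mb bin (log axis), with lists scaled to equal size, against distance from the centromeric edge in Mb; dotted lines mark 1.5 and 0.67. The 293T ratio is above 1 in 8 of the 16 centromeric bins and in none of the 16 telomeric bins, and the LNCap ratio peaks at 1.79 and 1.72.

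The bin from 33 to 34 Mb was the richest LNCap bin of the arm. It held 66 LNCap silencers (exact Poisson interval 51.0 to 84.0), against 43 of K562 (31.1 to 57.9) and 27 of 293T (17.8 to 39.3). Its LNCap ratio was 1.79 and its 293T ratio 0.539. This stretch is known for the interferon receptor genes IFNAR1, IFNAR2 and IFNGR2, the interleukin receptor gene IL10RB, and the oligodendrocyte transcription factors OLIG1 and OLIG2. The other high LNCap bin, from 37 to 38 Mb, held 52 silencers in LNCap (38.8 to 68.2), 32 in K562 (21.9 to 45.2) and 25 in 293T (16.2 to 36.9), a ratio of 1.72. It is the bin of DYRK1A, a kinase gene of the Down syndrome region, and of the potassium channel gene KCNJ6. In both bins the 293T and LNCap intervals do not overlap, whereas those of K562 and LNCap do.

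In the desert between NCAM2 and APP the lines took different bins. From 22 to 23 Mb, 293T held 45 silencers (32.8 to 60.2), K562 27 (17.8 to 39.3) and LNCap 37 (26.1 to 51.0), which made the bin high for 293T (1.53) and low for K562 (0.641). From 24 to 25 Mb the order was another: K562 held 47 (34.5 to 62.5), 293T 31 (21.1 to 44.0) and LNCap 26 (17 to 38.1), high for K562 (1.61) and low for LNCap (0.632). In each of these bins the counting intervals of all lines overlap. The other low LNCap bins lay at 13 to 14 Mb (35 silencers, ratio 0.659) and 18 to 19 Mb (24 silencers, ratio 0.594).

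The remaining low 293T bins were at 32 to 33 Mb (19 silencers, ratio 0.665), 34 to 35 Mb (12, 0.667), 38 to 39 Mb (26, 0.656), 41 to 42 Mb (23, 0.623), 42 to 43 Mb (24, 0.548) and 43 to 44 Mb (16, 0.598). The bin at 38 to 39 Mb is that of ERG, a blood and vessel transcription factor of the ETS family, and the bin at 41 to 42 Mb that of TMPRSS2, an androgen-driven protease gene; in prostate tumours both are often fused. LNCap held 44 and 36 silencers there and K562 42 and 44, ratios between 1.02 and 1.47. Neither bin was called for LNCap or K562.

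Each line had its own richest bins. 293T had most silencers at 21 to 22 Mb and 23 to 24 Mb (52 each) and at 13 to 14 Mb (49). K562 had most at 19 to 20 Mb (59), followed by 36 to 37 Mb (58) and by 27 to 28 Mb (54). In LNCap the bin at 33 to 34 Mb (66) led those at 36 to 37 Mb (56) and at 37 to 38 Mb (52). Only the bin at 36 to 37 Mb, known for the neuronal transcription factor SIM2 and the biotin ligase HLCS, was among the top 3 of more than 1 line; 293T held 41 there. The lines shared their poorest bin. It lay at 34 to 35 Mb, which holds the downstream end of RUNX1, a master regulator of blood cell formation, with counts of 12 (293T), 22 (K562) and 17 (LNCap). The K562 ratio there, 1.5 when rounded, lay just at the limit and was not called. The next poorest bins differed: 43 to 44 Mb (16) and 32 to 33 Mb (19) in 293T, 22 to 23 Mb (27) and 28 to 29 Mb (29) in K562, and 18 to 19 Mb (24) and 24 to 25 Mb (26) in LNCap. The last 0.7 Mb of the window, from 45.0 to 45.7 Mb, is no full bin; it held 18, 18 and 20.

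Counts of the lines followed each other loosely from bin to bin. Over the 32 bins Spearman's rho reached 0.42 between 293T and K562, against 0.33 between K562 and LNCap and 0.09 between 293T and LNCap. Over the bins with at least 20 silencers of each other autosome, it ran from 0.63 to 0.93 for K562 and LNCap (median 0.78) and from 0.26 to 0.81 for 293T and LNCap (median 0.57). For 293T and K562 it ran from 0.40 to 0.87 (median 0.64), and 1 of the 21 autosomes was below the long arm. Bins of the other autosomes come from their whole lengths, whereas the window leaves out the centromere and short arm. The rho values are therefore not fully comparable. All bins of a list rest on the same libraries, the bins are not independent, and no test was made.

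Most silencers of the arm were found in 1 list, as in the series as a whole. The 3 lists together formed 3356 merged regions: 983 of 293T alone (29.3%, Wilson interval 27.8 to 30.9), 1067 of K562 alone (31.8%, 30.2 to 33.4) and 1056 of LNCap alone (31.5%, 29.9 to 33.1). Over the whole series these shares were 32.0%, 30.0% and 30.9%. K562 and LNCap alone shared 169 (5.04%, 4.35 to 5.83, against 5.11% in the series), 293T and K562 40 (1.19%, 0.877 to 1.62, against 0.763% of regions in the series), and 293T and LNCap 29 (0.864%, 0.602 to 1.24, against 0.856%). All 3 lists held 12 regions (0.358%, interval 0.205 to 0.624), against 0.372% of the merged regions of the whole series. A silencer missed in a list cannot be told apart here from one that is absent in that line.

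Overlap, counted at 1 bp or more, was again closest between K562 and LNCap. Of the K562 silencers of the arm, 187 (14.4%, interval 12.6 to 16.4) met a LNCap silencer, against 15.7% of the whole list, and 2 of the other 21 autosomes were lower. In the other direction 188 LNCap silencers (14.8%, 12.9 to 16.8) met K562, against 15.4%, and 9 of the other 21 autosomes were lower. Between 293T and K562 the arm lay somewhat higher than the lists as a whole: 51 silencers in 293T (4.78%, 3.66 to 6.24) met K562, against 3.30%, and 51 in K562 (3.94%, 3.01 to 5.14) met 293T, against 3.03%. In both directions 19 of the other 21 autosomes were lower. Only the first of these intervals leaves out the value of the whole list, and the difference was not tested. Between 293T and LNCap, 41 silencers in 293T (3.85%, 2.85 to 5.18) met LNCap, against 3.58%, and 41 in LNCap (3.22%, 2.38 to 4.34) met 293T, against 3.23%.

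**Figure D4:**
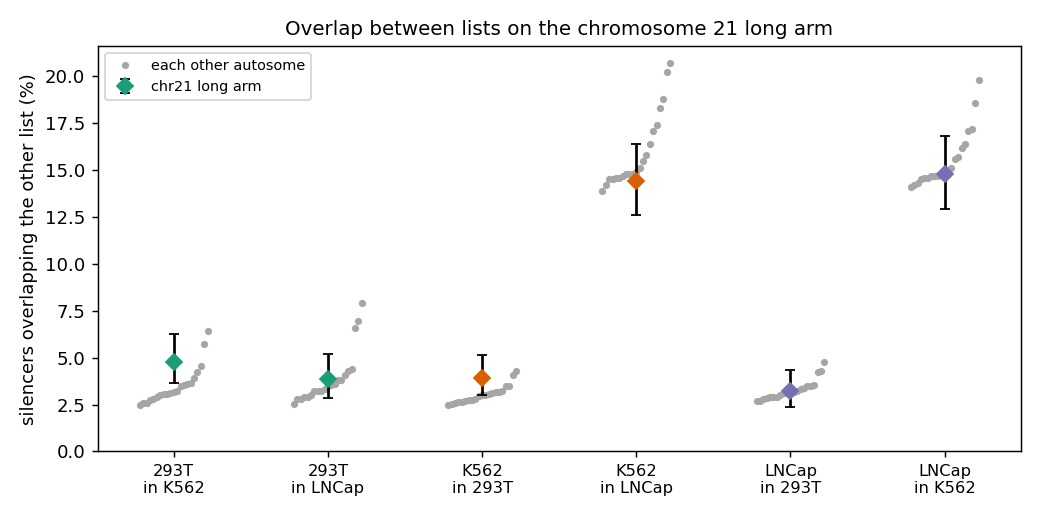
Percentage of silencers of one list that overlap a silencer of another, for the 6 ordered pairs of lists; diamonds are the long-arm window with 95% Wilson intervals and grey points the other 21 autosomes. K562 with LNCap gives 14.4% and 14.8%, the pairs with 293T between 3.22% and 4.78%, and each diamond lies within the range of the other autosomes.

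Outside the window, the overlap of K562 and LNCap was higher on the centromeric side. Centromeric of the window, on the short arm and around the centromere, 54 of 149 K562 silencers (36.2%, interval 29.0 to 44.2) met LNCap and 52 of 132 LNCap silencers (39.4%, 31.5 to 47.9) met K562. There, 3 of 78 silencers in 293T met K562 (3.85%) and 4 met LNCap (5.13%). Telomeric of the window the share of K562 silencers that met LNCap was 5 of 36 (13.9%, 6.08 to 28.7), near that of the arm.

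Along the arm, the share of K562 silencers that met LNCap was 14% (11.1 to 17.5) in the centromeric piece, 11.6% (8.91 to 15.0) in the middle and 17.8% (14.4 to 21.8) in the telomeric one. The corresponding shares of 293T silencers that met K562 were 3.74% (2.35 to 5.90), 4.92% (3.05 to 7.85) and 6.29% (4.02 to 9.73). Those that met LNCap were 2.86% (1.68 to 4.83), 3.08% (1.68 to 5.57) and 6.29% (4.02 to 9.73). All these intervals overlap within their series, which does not show that the shares were equal along the arm. For K562 in LNCap, those of the middle and telomeric pieces overlapped only from 14.4 to 15.0%.

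Silencers of a higher score met the other list more often in the pair K562 and LNCap, by a step close to that of the whole lists. Of K562 silencers scoring 2 to 2.1, 60 of 568 (10.6%, 8.30 to 13.4) met LNCap, against 53 of 265 (20.0%, 15.6 to 25.2) scoring 2.6 or more; over the whole K562 list the shares were 12.4% and 20.9%. For LNCap silencers in K562 the values were 62 of 530 (11.7%, 9.23 to 14.7) and 64 of 297 (21.5%, 17.3 to 26.6), with 10.6% and 22.1% over the whole LNCap list. In the other pairs the counts were small and the intervals of low and high scores overlapped. 293T silencers that met LNCap made up 2.71% (1.48 to 4.92) at scores of 2 to 2.1 and 5.21% (3.23 to 8.30) at 2.6 or more. In the reverse direction the LNCap shares were 2.64% (1.58 to 4.38) and 4.71% (2.83 to 7.76), and K562 silencers met 293T in 2.64% (1.61 to 4.31) and 4.15% (2.33 to 7.28). For 293T in K562 the values lay closest together, with 17 of 369 (4.61%, 2.90 to 7.25) and 15 of 307 (4.89%, 2.98 to 7.90). Over the whole 293T list those shares were 2.54% and 4.28%. At scores of 2.2 to 2.5 the arm had 19 of 390 (4.87%, 3.14 to 7.48), against 3.21%. The arm thus stood above the list in each score class, but only in the lowest class did the interval leave out the list value. The intervals of the classes overlapped. Width moved with overlap as well. Of 748 K562 silencers 50 bp wide, 82 (11.0%, 8.92 to 13.4) met LNCap, against 105 of 548 wider ones (19.2%, 16.1 to 22.7); the whole list had 11.0% and 22.4%. A wider silencer meets a rule of 1 bp more easily, and its part in the result was not tested.

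Overlapping silencers often differed in extent. Of 194 overlapping K562-LNCap pairs, 14 were identical in extent and 32 (16.5%) began at the same base. Of 53 pairs of 293T and K562, 1 was identical and 4 (7.55%) shared a start; of 41 pairs of 293T and LNCap, 1 was identical and 4 (9.76%) shared a start. The median overlap was 50 bp for each pair of lists. Scores within pairs were loosely related across sites: Spearman's rho was 0.38 over the 194 K562-LNCap pairs, 0.28 over the 53 pairs that joined 293T to K562, and 0.19 over the 41 that joined it to LNCap. Both members scored 3 or more in 13 pairs of K562 and LNCap, 1 of 293T and K562 and 0 of 293T and LNCap. The pair with the highest lower score, singled out after the values were seen, was a K562 silencer at 27813101 to 27813201 (score 4.5) and a LNCap silencer at 27813172 to 27813222 (score 4.4). An identical pair with high scores in both lists lay at 30864051 to 30864101 (4.1 in K562 and 4.2 in LNCap).

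Distances to the nearest silencer of another list were taken over all silencers, overlapping ones included. The median distance from a K562 silencer to the nearest LNCap midpoint was 5548 bp, and 28.3% lay within 1000 bp. From K562 to the nearest 293T midpoint the median was 10106 bp, with 12.3% within 1000 bp. From 293T silencers it was 8023 bp to K562 and 7988 bp to LNCap, with 14.4% and 14.7% within 1000 bp. These distances also depend on how many silencers the other list holds.

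The 12 regions held by all 3 lists are the silencers of the arm that were found in blood, prostate and kidney-derived cells alike. They measured 132 to 492 bp when merged, with a median of 325 bp. In 9 of them some bases were covered by all 3 lists, and in the other 3 (starting at 16539701, 36309601 and 42922593) the lists met only in a chain. From the centromeric to the telomeric piece they numbered 4, 1 and 7. In 3 of the 12, each list had a score of at least 2.5.

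With regions ordered by the lowest of their 3 scores as deposited, the first was chr21:40555801-40556101, in the stretch of DSCAM, a gene for an adhesion molecule of the developing nervous system. It scored 2.8 in 293T and 3.1 in both other lists. The 293T silencer spanned the whole region, and the K562 silencer (40556001 to 40556051) lay inside the LNCap silencer (40555951 to 40556051), so that 50 bp were common. Next came chr21:42922593-42922753, with scores of 2.7, 2.8 and 3.4 in 293T, K562 and LNCap. There the LNCap silencer met each of the others, which did not touch each other. The region chr21:13337450-13337801 near the centromeric edge scored 2.5, 3.3 and 2.8, with 100 bp common to the lists. The K562 and LNCap silencers began at the same base in it.

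The region chr21:38603983-38604400 lies in the stretch of ERG. 293T scored it 2.6, K562 3.4 and LNCap 2.3, over 50 common bases. The region chr21:37576751-37577001, between DYRK1A and KCNJ6, had the highest single score of the set, 3.7 in 293T, beside 2.5 in K562 and 2.2 in LNCap. A close pair of regions was also in the set: chr21:36309601-36310001 (2.4, 2.1 and 2.2) and chr21:36312679-36312921 (2.0, 2.3 and 2.9) lay 2678 bp apart.

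The other regions of the set scored lower in at least 1 list. The region chr21:17454651-17455101 held 2 silencers in 293T (2.0 and 2.8), beside 2.2 in K562 and 2.9 in LNCap; the second of 293T and that of LNCap had the same ends, 17454851 and 17455051. The widest region, chr21:13843001-13843493, scored 2.0, 2.4 and 2.4, with 144 common bases. The region chr21:38984451-38984801 scored 2.4, 2.0 and 2.6. The region chr21:16539701-16539901 scored 2.4, 2.2 and 2.3. The narrowest region, chr21:32729383-32729515, scored 2.0, 2.0 and 2.1, the lowest scores of the set, and 18 bases were common.

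**Figure D5:**
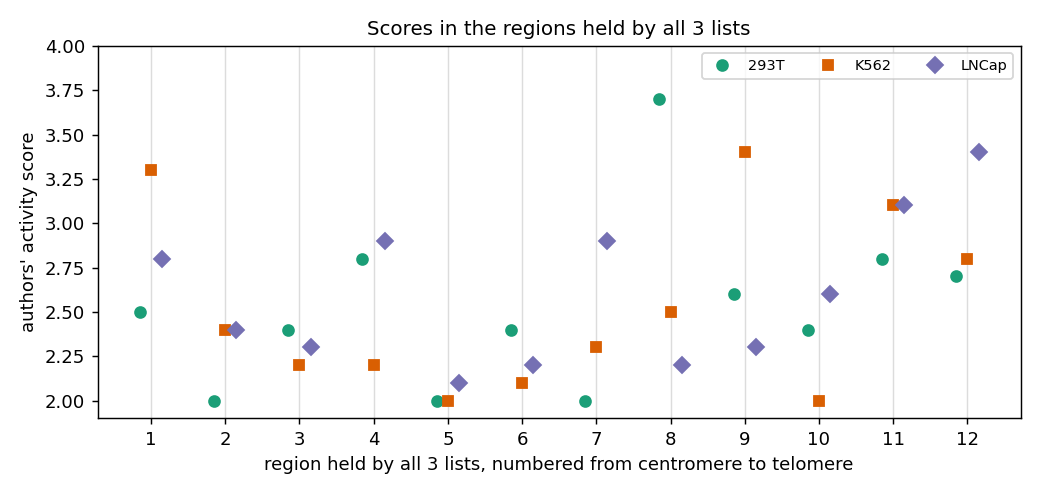
Authors' activity score of each line in the 12 regions held by all 3 lists, numbered from centromere to telomere; where 293T has 2 silencers in a region the higher score is drawn. The scores run from 2.0 to 3.7, and in region 11 (DSCAM stretch) all lines score between 2.8 and 3.1.

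The highest scores of the arm were mostly found in 1 list, as were most of its silencers at any score. In 293T they were 6.6 at chr21:14008417-14008467, 6.4 at chr21:29801291-29801341 and 5.5 at chr21:13146351-13146401. None of these overlapped another list, and the nearest midpoint of another list was 2617, 29110 and 21774 bp away. In K562 they were 6.5 at chr21:38816100-38816151, 6.3 at chr21:39232235-39232285 and 5.9 at chr21:13035401-13035451, again without overlap. K562 also held the only infinite score of the arm, at chr21:40067741-40067791; the nearest LNCap midpoint was 9790 bp away. In LNCap they were 6.7 at chr21:18440283-18440333, 6.0 at chr21:37982901-37982951 and 5.2 at chr21:43283697-43283747. The first of these lay inside a K562 silencer (18440233 to 18440500) that scored 3.0, and the others overlapped none. Over all silencers of the arm, 4.78% in 293T met K562 and 3.85% met LNCap. In K562, 3.94% met 293T and 14.4% LNCap, and in LNCap 3.22% met 293T and 14.8% K562. The top scores are too few to be told apart from these low shares. Higher finite scores were listed elsewhere in the genome, up to 10.4 for 293T, 11.8 for K562 and 15.7 for LNCap.

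Silencers stood less often in groups on the arm than in the lists as a whole. Groups of at least 3 silencers of 1 list, 500 bp or less apart, held 27 silencers in 293T (2.53%, against 4.47% of the whole list), 32 in K562 (2.47% against 4.52%) and 25 in LNCap (1.96% against 5.09%). The difference was not tested, and a sparser stretch holds fewer close neighbours. No group had more than 4 members. Groups of 4 were found in K562 at 24412651 to 24413351 and at 33635252 to 33636001, and in LNCap at 26806751 to 26807251, where the best score was 4.6 and neither other list had a silencer. None of the 9 groups of 293T overlapped a silencer of another list. Such overlap was rare for 293T on the arm as a whole, where 4.78% of silencers met K562 and 3.85% LNCap. With 27 silencers in these groups, their lack of overlap cannot be told apart from those low shares.

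With all lists pooled, 7 clusters held at least 5 silencers. The fullest was chr21:33635252-33636001, in the LNCap-rich bin, with 4 silencers in K562 (best score 3.2), 3 in LNCap (best score 3.6) and none in 293T. The cluster chr21:19958847-19959251 held 6 silencers, 2 of them from 293T, 3 from K562 and 1 from LNCap, with best scores of 2.7, 2.3 and 3.2. Clusters of 5 with all lists present lay at chr21:13272201-13272901, chr21:13322051-13323401 and chr21:42922193-42922753, the last around a region held by all lists. The clusters chr21:31907001-31908401 and chr21:35079351-35079784 each lacked 1 list, LNCap and 293T.

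Empty stretches were short. Of 327 bins of 100 kb, 32 held no 293T silencer, 17 none of K562, 22 none of LNCap, and 4 none of any list, starting at 17600000, 22100000, 34400000 and 43400000. All 3 lists were present in 274. The longest stretches without a silencer of any list were chr21:22095454-22299799 (204 kb), in the desert between NCAM2 and APP, and chr21:43383200-43585651 (202 kb). The longest gaps of K562 (321 kb, from 43266201) and LNCap (302 kb, from 43283747) both spanned the second of these. The longest gap of 293T (361 kb) ran from 32729433 to 33090201; it begins at the 293T silencer of the narrowest region held by all lists and reaches into the LNCap-rich bin.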

How the data were processed

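Ss-STARR-seq libraries of 293T, K562 and LNCap are represented by 1 deposited silencer list per line giving position and activity. The submitters' processing notes name Bowtie2, SAMtools and build hg38; region caller, thresholds and library pooling: not given in the sources used here. Per the file headers, activity is a score of the authors with no stated scale, deposited with 1 decimal, and finite scores start at 2. Positions are printed as deposited; counting from 0 or 1 is not stated.

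Broken lines, lines with an end not above the start and lines over 5000 bp wide were left out (58, 12 and 25 lines in 293T, K562 and LNCap; 1 of them, of 293T, named chromosome 21). Overlap was at least 1 bp. Shares carry 95% Wilson intervals and counts exact Poisson intervals, both for counting error only. Autosome lengths were the highest listed end. No test was run, since each line has 1 list.

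Named bins were the 3 fullest and 3 emptiest per list and all past the ratio rule; named silencers were the 3 highest finite scores per list and all regions held by 3 lists. The infinite score, the pairs of lists, the groups and the empty stretches were picked after their values were seen. Members, lists and rules were chosen with earlier results of these data known. Gene features, silencers per gene, base composition, motifs and the gene lists planned for them were not analysed here. The overlap procedure was tested on simulated data. For the bins only the counting of added silencers was checked, so the scaling, the ratio and the calling rule were not tested. Computation used scipy 1.17.1, pandas 2.3.3 and numpy 2.4.6 under Python 3.11.15, with plots by matplotlib 3.10.9.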

Additional observations from a re-analysis of the deposited data

How the results depend on the processing

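Overlap rose with looser rules, and K562 with LNCap had the highest shares under every overlap rule tried. With midpoints within 500 bp the shares were 10.9% and 10.8% for 293T in K562 and in LNCap, 9.03% and 24.6% for K562 in 293T and in LNCap, and 8.72% and 25.3% for LNCap in 293T and in K562. With every silencer set to 300 bp they were 8.91%, 8.72%, 7.25%, 22.8%, 7.07% and 23.5% in the same order. Requiring 50% of the shorter silencer moved 293T in K562 to 3.56%. Above the median score in both lists, K562 in LNCap fell to 12.2% and LNCap in K562 to 11.8%. This setting also leaves fewer possible partners, and the part of that in the fall was not tested. The other 15 shares stayed inside the counting interval of the reported value.

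Densities per Mb in 293T, K562 and LNCap were 29.3, 35.4 and 34.8 after merging within 500 bp and 13.9, 16.8 and 17.1 above the median score. Per Mb of occupied 100 kb bins they were 36.1 in 293T and 41.7 in LNCap. The 293T share of the arm against the other lists rose from 0.900 to 0.973 above the median score. The ratios by piece of the arm, whose alternatives were chosen after seeing the data, stayed inside their counting limits in all 18 cases; the 293T ratio of the telomeric piece was 0.715 after merging and 0.720 above the median score, and that of the centromeric piece 1.18 and 1.25.

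Counts of called bins depended on the rule. With lists scaled within the window, 293T was low in 4 bins and high in 2, and K562 high in 0. Of 64 bins of 500 kb, 63 held the required 20 silencers. Among them 293T was low in 14 and high in 4, and K562 low in 3 and high in 7. LNCap was low in 8 and high in 5. Above the median score, 293T was high in 2, and K562 low in 4 and high in 5. Single bin calls near the limits therefore rest on few silencers. For these other settings the share over the bins of the genome was not computed, so whether any of these counts is unusual cannot be told. Widths over 5000 bp changed no density.

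No paired analysis was possible because each line has 1 list and no test was run. Other settings intended for gene features, silencers per gene, base composition and motifs were not run.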
